A study of Homo sapiens with 8 samples.

Results

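The nuclear genes for the subunits of the mitochondrial respiratory chain and ATP synthase were described in 143B cells, an osteosarcoma cell line, with and without a knockout of NELL1. NELL1 is a secreted protein known to promote bone formation. Members were taken by symbol: names beginning with NDUFA, NDUFB, NDUFC, NDUFS or NDUFV and a number, SDHA to SDHD, the UQCR genes, CYC1, COX4 to COX8 and ATP5, without the NDUFAF assembly factors, and with a value in all 8 libraries. The rule matched 282 of the 54174 symbols in the table, and 86 of them had a value in every library. Of those 86, 77 encode structural subunits: 36 of complex I, 4 of complex II, 9 of complex III, 11 of complex IV and 17 of complex V. The other 9 matched by spelling or relation: the complex II assembly factors SDHAF1 to SDHAF4, the ATP synthase inhibitor ATP5IF1, the supercomplex factor COX7A2L, the NDUFA4 relative NDUFA4L2, and the readthrough rows ATP5MF-PTCD1 and NDUFC2-KCTD14. The rule did not take NDUFAB1, whose symbol has another letter before its number, and the subunits encoded by mitochondrial DNA were not analysed here.

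The study compared 4 libraries of 143B cells that received an empty vector plasmid (controls) with 4 libraries of 143B cells labelled as NELL1 knockout, each 48 h after transient plasmid transfection. All cells of both groups were grown in serum-supplemented medium and transfected with the same reagent, TransIT-LT1, and total RNA was extracted with TRIzol for stranded libraries. As a model, the design uses 1 cell line, and the labels do not say whether the knockout libraries came from selected clones, from separate clones or from a mixed population. The series text calls the libraries biological replicates. It does not say whether they came from separate cultures, so the p-values measure only the spread between these libraries, which may in part be technical.

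The respiratory chain passes electrons from NADH (complex I) and succinate (complex II) through ubiquinone to complex III, then through cytochrome c to complex IV, which reduces oxygen. Complexes I, III and IV pump protons across the inner mitochondrial membrane, and complex V, the ATP synthase, uses the proton gradient to make ATP. Most subunits are encoded in the nucleus and imported, and the nuclear respiratory factor NRF1, the ETS-family factor GABPA and the zinc-finger factor YY1 are known regulators of many of their promoters.

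The promoters of the members are shown first, because the choice of members did not use promoter letters. RefSeq promoter windows (GRCh38.p14, 250 bases before to 50 after the start) were matched for 72 of the 86 members, in 86 windows of 300 bases. Matching was by symbol or, failing that, by Ensembl identifier or a unique synonym. Each window was searched on both strands for the letters of NRF1 (GCGCA and GCGC on either side of any 1 base), GABPA (CCGGAAGT) and YY1 (AAGATGGC), with TATAAA as a further motif. At least 1 of the first 3 motifs stood in 36 of 72 of the members' genes, in 2252 of the 7516 tested genes with a window and in 13.9% of all genes with a window. The sites below are 30 bases each, 5′ to 3′ on the gene's strand, with the motif or its reverse complement in capitals. At ATP5PO the capitals are the NRF1 letters reversed. The first 10 are from genes that were higher in the knockout libraries and the last 3 from genes that did not pass the test and lay below 0. They are a selection from 56 matches, of which 16 were at genes that were higher. Windows of ATP5PF overlapped, and its YY1 site was counted in each of them. Matches at genes above 0 that did not pass the test are not shown.
UQCRQ, GABPA letters, chr5:132866577-132866606, plus strand: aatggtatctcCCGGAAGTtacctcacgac
SDHD, NRF1 letters, chr11:112086753-112086782, plus strand: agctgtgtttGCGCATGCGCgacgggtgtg
SDHD, GABPA letters reversed, chr11:112086784-112086813, plus strand: accgcctctcgACTTCCGGttcacccagca
UQCR10, NRF1 letters, chr22:29767351-29767380, plus strand: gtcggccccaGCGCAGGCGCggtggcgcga
ATP5PF, GABPA letters, chr21:25734894-25734923, minus strand: cggagccagggCCGGAAGTagagcggaggt
ATP5PF, YY1 letters, chr21:25735093-25735122, minus strand: taggcgaagaaAAGATGGCggaggctgtgc
NDUFA6, YY1 letters, chr22:42090729-42090758, minus strand: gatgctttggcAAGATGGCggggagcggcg
ATP5PO, NRF1 letters, chr21:33915809-33915838, minus strand: acgccaacgcGCGCGTGCGCccttgcgcgt
NDUFA9, YY1 letters, chr12:4649113-4649142, plus strand: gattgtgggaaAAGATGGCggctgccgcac
COX8A, GABPA letters reversed, chr11:63974590-63974619, plus strand: ccagctccagaACTTCCGGccagcgcagcc
NDUFB4, NRF1 letters, chr3:120596318-120596347, plus strand: cctcagaatcGCGCAGGCGCaattgtgccc
UQCRC1, YY1 letters, chr3:48609605-48609634, minus strand: actgcagctggAAGATGGCggcgtccgtgg
ATP5PB, YY1 letters reversed, chr1:111449451-111449480, plus strand: acttgtgagcgGCCATCTTggtcctgccct
The NRF1 and YY1 letters stood both at genes above 0 and at genes below 0. The GABPA letters stood in 13 of the members' windows, all of genes with a change above 0. Of all 84 tested members, 72 had a change above 0, and a difference between the motifs was not tested.

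By window, the NRF1 letters stood in 20.9% of the members' windows, in 1197 of 10888 windows of tested genes and in 5.78% of all 35116 windows. The GABPA letters stood in 15.1% of the members' windows (8.67% of those of tested genes, 4.14% of all), and the YY1 letters also in 15.1% (5.46% and 2.89%). Among genes with a window, 11 of 22 members that were higher in the knockout libraries held at least 1 of the 3 motifs, and so did 22 of 42 subunits that did not pass the test (52.4%). By window, the members that were higher and the other subunits held the NRF1 letters in 20.8% and 21.2%, the GABPA letters in 20.8% and 13.5%, and the YY1 letters in 25.0% and 13.5%. These shares rest on 24 and 52 windows and their difference was not tested. The YY1 share of the members that were higher counts the ATP5PF site in each of its overlapping windows. TATAAA stood in 5 of 24 windows of the members that were higher (20.8%) and in 1 of 52 windows of the other subunits (1.92%). Among all members' windows it stood in 6 of 86 (6.98%), against 6.06% of the windows of tested genes and 11.5% of all windows. The difference in TATAAA was not tested either. Of 56 matches to the first 3 motifs, 2 overlapped another match. A match is a description of letters, not of a bound site.

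The deposited table gives log2 values after quantile normalization by the authors, which puts every library on the same distribution. Each library had between 14911 and 15171 genes with a value, with the same median of 1.77. Counts are not in the table, so the depth behind each value is unknown and levels of different genes were not compared. NELL1 itself had 7 values, all between -6.97 and -4.53 near the bottom of the scale, and did not separate the groups, so it gives no check of the labels. Of the mesenchymal markers, VIM (10.19 to 10.86), SPARC (5.23 to 6.15) and RUNX2 (0.05 to 0.43) had values in every library, COL1A1 lay between -1.45 and 0.90, and COL1A2 had 4 values between -7.55 and -4.82. Of the markers of other lineages, PTPRC and CD3E were blank. PECAM1 (-4.61 to -3.31) and ALB (6 values, -6.40 to -3.39) were near the bottom, and EPCAM, an epithelial marker, lay between 1.83 and 2.76. Between knockout replicates 1-2 and 3-4, COL1A1 (-1.45 and -0.87 against 0.80 and 0.90) and EPCAM (2.55 and 2.76 against 1.83 and 1.94) differed. SPARC differed little (6.10 and 6.06 against 6.15 in both). The COL1A2 values were all from replicates 1-2. The knockout libraries formed close pairs: over the tested genes the SD of the difference was 0.12 between knockout replicates 1 and 2, 0.13 between 3 and 4, and 0.46 to 0.50 between the pairs. Between controls it was 0.10 to 0.29, and between a control and a knockout library it was 0.36 to 0.45. The knockout pairs thus differed more from each other than from the controls. In bulk RNA, fewer cells of a type and less RNA per cell cannot be told apart.

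Respiratory chain genes were mostly higher in the knockout libraries, by small amounts. The test was limma on the log2 values of the 9016 genes that had no blank cell and averaged at least 1, with Benjamini-Hochberg adjustment over all of them, and 84 members entered it. At adjusted p under 0.05, 25 of 84 members were higher in the knockout libraries (29.8%) and 0 were lower. At an unadjusted p under 0.05 in the same limma fit, 46 were higher and 1 lower. Over all 9016 genes, 7.02% were higher and 6.1% lower. The log2 fold change, knockout minus control, was above 0 for 72 of 84 members (85.7%), against 51.3% of all genes. Its median was 0.20 (1.15-fold) over the members and 0.01 over all genes. Every knockout value lay above every control value in 42 of 84 members, against 12.5% of all genes. In 1 member, ATP5PB, every knockout value lay below every control value, against 10.4% of all genes.

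**Figure D1:**
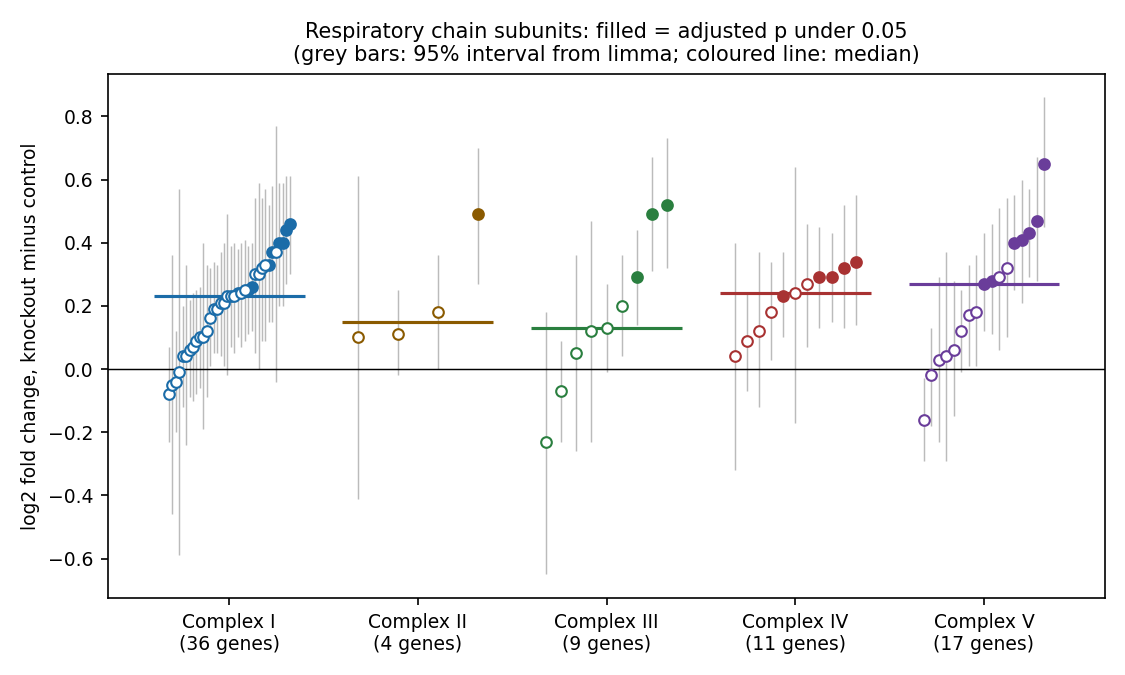
Log2 fold change (knockout minus control, 4 libraries each) of the 77 structural subunits, grouped by complex on the horizontal axis. Filled points have an adjusted p under 0.05 in limma, grey bars are 95% intervals and coloured lines are medians, which lie between 0.13 and 0.27; all 25 filled points lie above 0.

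The same direction was seen library by library. Relative to each gene's control mean, the median over the members was -0.04, 0.01, 0.03 and 0.01 in control replicates 1 to 4. In knockout replicates 1 to 4 it was 0.29, 0.26, 0.16 and 0.15, so all 4 knockout libraries were above all controls and the first pair was higher than the second. Over all genes these medians lay between -0.02 and 0.03. By complex, the median change was 0.23 for complex I (9 of 36 called), 0.15 for complex II (1 of 4), 0.13 for complex III (3 of 9), 0.24 for complex IV (5 of 11) and 0.27 for complex V (7 of 17). With the replicate block described below, the counts for complexes I to V were 4, 1, 2, 1 and 5. The difference between complexes was not tested. None of the 7 tested members that are not structural subunits was called in limma, and 0 of the 7 had an unadjusted p under 0.05.

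The number of members called depended on how the libraries were treated. With the replicate number as a block, which compares same-numbered knockout and control libraries, limma called 13 of 84 members, all higher (5.68% of all genes were higher). With each close pair of knockout libraries averaged to 1 sample, 0 of 84 members and 1.2% of all genes were called; 34 members had an unadjusted p under 0.05 (20.6% of all genes), and the adjusted p of the 25 called members was 0.0512 to 0.192. With a term for replicates 1-2 against 3-4 in place of the replicate number, 40 members were called, all higher (13.8% of all genes higher). With no filter on low values 15 members were called (4.65% of all genes higher). Without control replicate 1, 2 or 4 the count was 9, 9 and 8 (2.54%, 2.51% and 2.35% of all genes higher), and without knockout replicate 1, 2 or 3 it was 13, 14 and 16 (5.18%, 4.86% and 4.17%). Without control replicate 3 or knockout replicate 4 it was 28 and 22 (8.21% and 5.46%). In each of these the median over the members was 0.16 to 0.23. The replicate block, the term for replicates 1-2 against 3-4 and the averaging of pairs leave each gene's mean change as it was. The median therefore could not move in those fits, and its value there is no separate result.

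**Figure D2:**
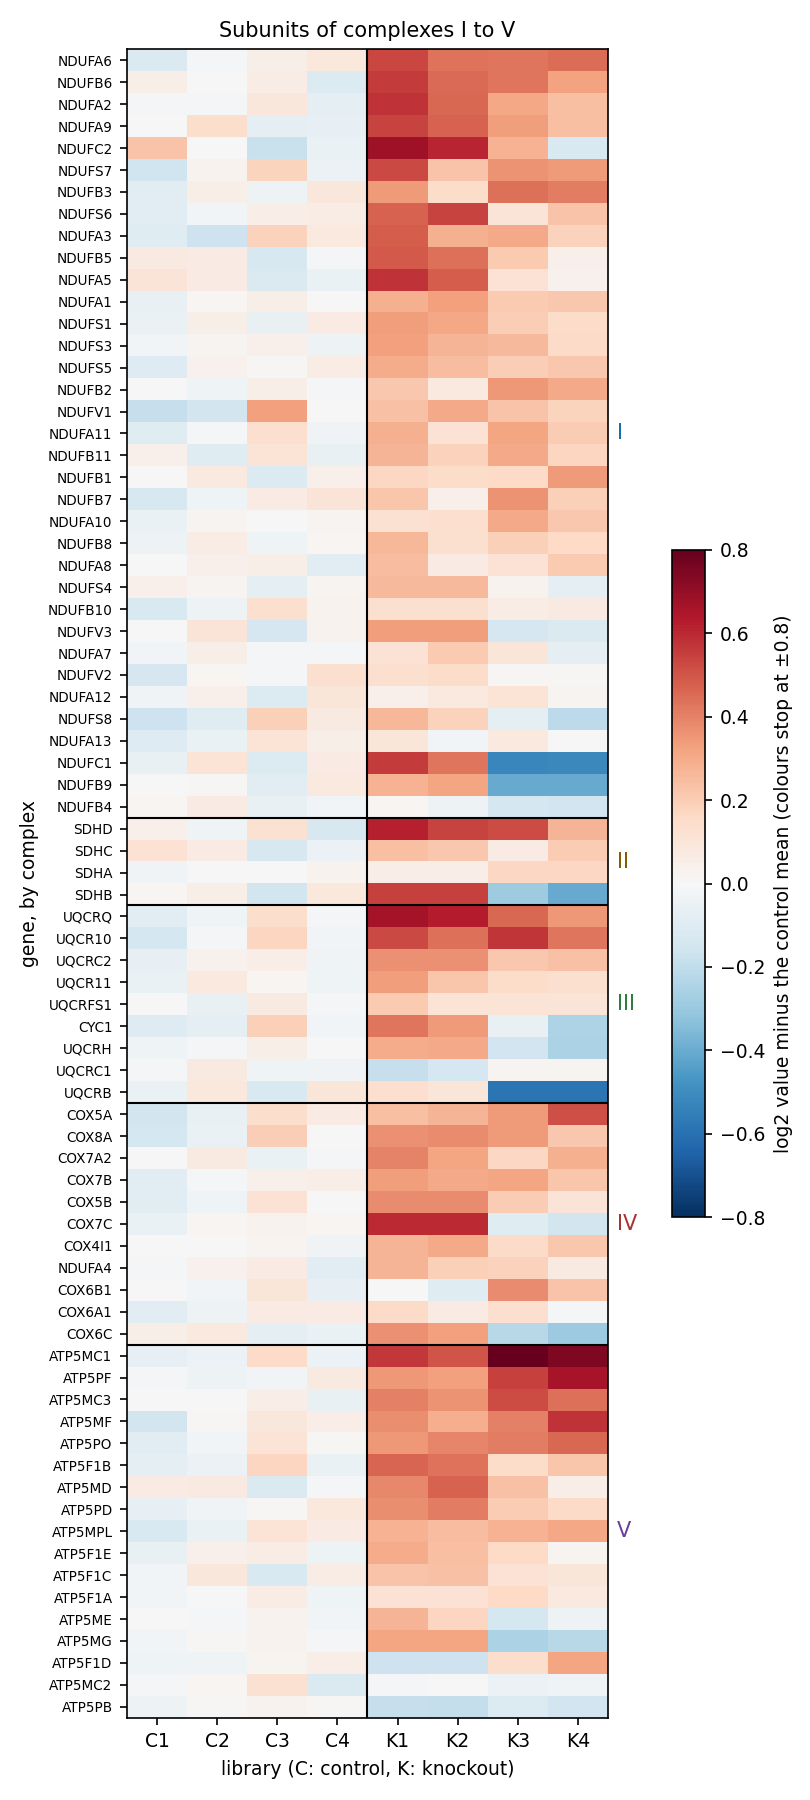
The structural subunits, 1 of the 77 left out (rows, ordered by log2 fold change within complexes I to V) in each library (columns, C1 to C4 control and K1 to K4 knockout), coloured by its log2 value minus its control mean, with colours ending at ±0.8. Most rows are red in all 4 knockout columns, while rows such as NDUFC1, SDHB and NDUFB9 are red in K1 and K2 and blue in K3 and K4.

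Complex I oxidises NADH with a core of redox and quinone-binding subunits, surrounded by accessory subunits that hold it together. Of its 7 nuclear core subunits, 2 were called higher: NDUFS7, which carries the last iron-sulfur cluster before ubiquinone, and NDUFS3, a subunit of the quinone module. NDUFS7 was 3.11, 3.30, 3.45 and 3.22 in controls and 3.80, 3.50, 3.63 and 3.61 in knockouts. The groups did not overlap, with control replicate 3 close under knockout replicate 2. The log2 fold change was 0.37 ± 0.09 (SE; limma adjusted p = 0.039). NDUFS3 changed by 0.25 ± 0.06 (limma adjusted p = 0.0355). The median over the core was 0.23.

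Of the 29 accessory subunits of complex I, 7 were called higher, and their median was also 0.23. NDUFA6, a small subunit with an LYR motif, was the highest. Its values were 4.70, 4.80, 4.86 and 4.90 in controls and 5.35, 5.25, 5.24 and 5.26 in knockouts, so the groups did not overlap and the knockout libraries were all close together. The change was 0.46 ± 0.07 (1.37-fold, limma adjusted p = 0.00589). NDUFB6, a membrane-arm subunit, was 4.68, 4.63, 4.69 and 4.52 in controls and 5.19, 5.08, 5.06 and 4.95 in knockouts (0.44 ± 0.07, limma adjusted p = 0.00898). NDUFA9 and NDUFA2, of the arm that faces the matrix, each changed by 0.40 ± 0.09 (limma adjusted p = 0.024 and 0.023). In NDUFB3 (0.33), NDUFA1 (0.26) and NDUFS5 (0.24) the groups also did not overlap, with limma adjusted p of 0.0333, 0.0276 and 0.0381. With the replicate block, the adjusted p of NDUFB3, NDUFA1, NDUFS5, NDUFS3 and NDUFS7 was 0.0664, 0.0723, 0.0919, 0.0733 and 0.0809. NDUFB4 had the lowest change of the complex at -0.08 (limma adjusted p = 0.453), and NDUFC2, at 0.37 ± 0.18, missed the threshold with knockout replicate 4 at 3.50, inside the controls' range of 3.44 to 3.85.

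Complex II is succinate dehydrogenase, shared with the citric acid cycle. SDHD, one of its membrane anchors, was 5.00, 4.92, 5.08 and 4.83 in controls and 5.58, 5.50, 5.48 and 5.23 in knockouts. The groups did not overlap, although knockout replicate 4 was nearer to the controls than the others. The change was 0.49 ± 0.09 (1.40-fold, limma adjusted p = 0.0142). The other anchor, SDHC, was at 0.18 ± 0.08 (limma adjusted p = 0.161) with overlapping groups. The flavoprotein SDHA was 4.60 to 4.65 in controls and 4.68 to 4.79 in knockouts, with no overlap and a change of 0.11 (limma adjusted p = 0.248). The iron-sulfur subunit SDHB went apart by knockout pair: 6.12, 6.15, 5.96 and 6.19 in controls, 6.65 and 6.65 in knockout replicates 1 and 2, and 5.82 and 5.70 in replicates 3 and 4. Its mean change of 0.10 ± 0.23 (limma adjusted p = 0.805) thus averaged a difference of 0.52 within replicates 1-2 and -0.32 within replicates 3-4.

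Complex III passes electrons from ubiquinol to cytochrome c. Its small accessory subunits UQCRQ and UQCR10 were the highest of the complex. UQCRQ was 5.00, 5.06, 5.23 and 5.08 in controls and 5.76, 5.72, 5.55 and 5.44 in knockouts, without overlap (0.52 ± 0.09, 1.44-fold, limma adjusted p = 0.00997). UQCR10 was 5.34, 5.47, 5.65 and 5.46 in controls and 6.01, 5.92, 6.05 and 5.91 in knockouts, also without overlap (0.49 ± 0.08, 1.41-fold, limma adjusted p = 0.00857). Of the 4 subunits listed as its core, the core protein UQCRC2 rose by 0.29 ± 0.07 (limma adjusted p = 0.0259, and 0.0649 with the replicate block), while UQCRC1, the other core protein, chosen here after its values were seen, was at -0.07. UQCRB, a ubiquinone-binding subunit, had the lowest change of all members, -0.23 ± 0.18 (limma adjusted p = 0.428). Its controls were 4.17, 4.31, 4.10 and 4.32, knockout replicates 1 and 2 were 4.36 and 4.32, and both of replicates 3 and 4 were 3.64, so the low mean came from the second knockout pair.

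Complex IV, cytochrome c oxidase, has its catalytic core encoded by mitochondrial DNA and regulatory subunits from the nucleus. All 11 of its nuclear subunits had a change above 0 and 5 were called. COX5A, a matrix-side subunit, was 6.34, 6.43, 6.63 and 6.55 in controls and 6.73, 6.76, 6.83 and 7.0 in knockouts, with no overlap (0.34 ± 0.09, limma adjusted p = 0.0394). COX4I1, the general isoform of subunit IV, was 7.57, 7.57, 7.59 and 7.54 in controls and 7.84, 7.87, 7.72 and 7.78 in knockouts (0.23 ± 0.06, limma adjusted p = 0.038). This was the smallest change called, on a control SD of 0.02. COX8A (0.32), COX7B (0.29) and COX7A2 (0.29), small membrane-spanning subunits, were called with limma adjusted p of 0.0415, 0.0196 and 0.0308. With the replicate block, the adjusted p of COX4I1, COX8A, COX7B and COX7A2 was 0.0859, 0.0739, 0.0606 and 0.0561. NDUFA4, first counted as a complex I subunit and now placed in complex IV, was at 0.18, COX6B1 at 0.12, COX6A1 at 0.09 and COX6C at 0.04, with limma adjusted p between 0.112 and 0.89.

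The tissue-restricted isoforms of complex IV were blank or low. COX4I2, COX6A2 and COX7A1, the lung or muscle forms, had no value in any library, and COX6B2, the testis form, had 3 values, all knockout, between -6.37 and -6.19. NDUFA4L2, which is known to be induced in low oxygen, lay between -1.07 and -0.54 in every library, with means of -0.77 ± 0.23 in controls and -0.84 ± 0.12 in knockouts (SD, n = 4). It fell under the minimum mean and was not tested.

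Complex V makes ATP in its F1 head, which is driven by a turning c ring and held by a peripheral stalk. The c ring held the largest change of all members. ATP5MC1 was 6.15, 6.17, 6.37 and 6.17 in controls and 6.78, 6.72, 7.01 and 6.96 in knockouts. The groups did not overlap, although control replicate 3 stood above the other controls. The change was 0.65 ± 0.09 (1.57-fold, 95% interval 0.45 to 0.86 on the log2 scale, limma adjusted p = 0.00492). ATP5MC1, ATP5MC2 and ATP5MC3 encode the same mature c subunit with different import sequences. ATP5MC3 was 4.78, 4.78, 4.83 and 4.72 in controls and 5.18, 5.14, 5.30 and 5.22 in knockouts (0.43 ± 0.06, limma adjusted p = 0.0056). ATP5MC2, chosen after its values were seen, was at -0.02 (limma adjusted p = 0.869), with knockouts between 5.83 and 5.88 inside the controls' range of 5.76 to 6.0.

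**Figure D3:**
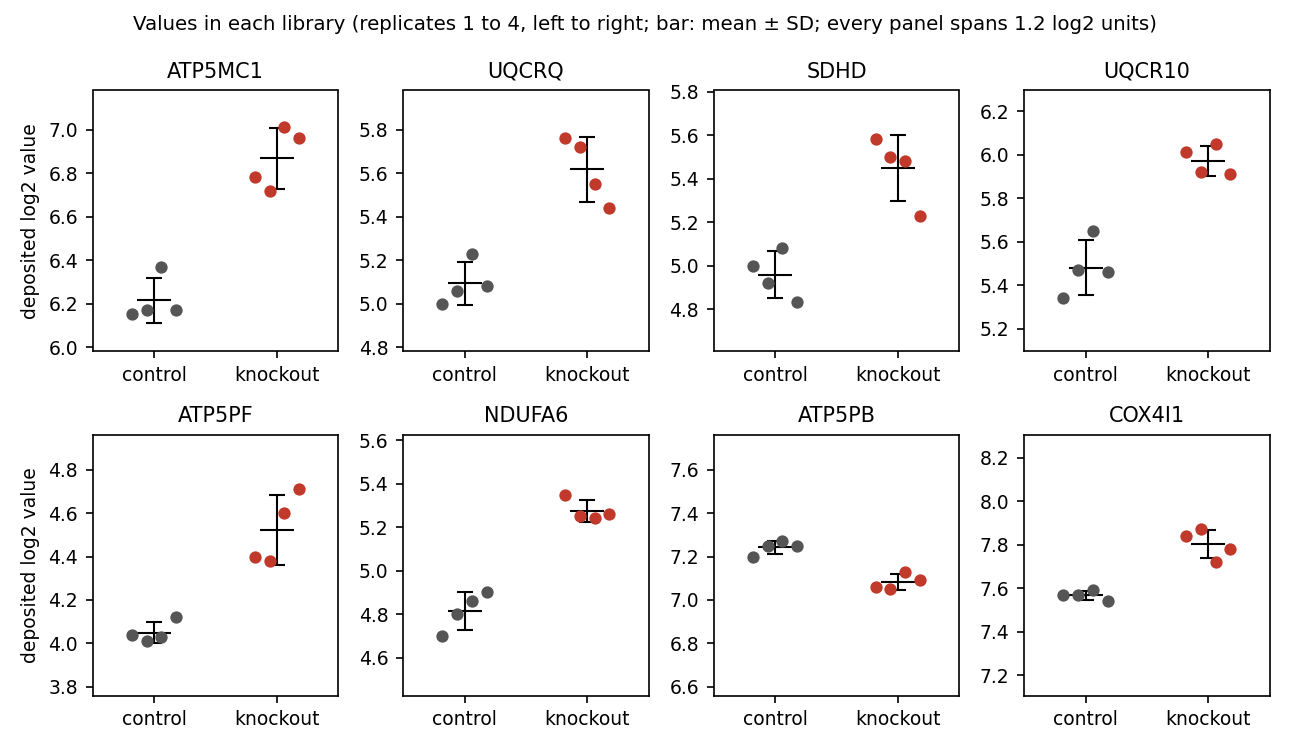
Deposited log2 values of 8 subunits in each library (dots, replicates 1 to 4 from left to right) with the mean ± SD of each group of 4; every panel spans 1.2 log2 units. In 7 panels all knockout dots lie above all control dots, and in ATP5PB they lie below.

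In the peripheral stalk 3 of 4 genes were called higher and the fourth lay the other way. ATP5PF, a coupling factor of the stalk, was 4.04, 4.01, 4.03 and 4.12 in controls and 4.40, 4.38, 4.60 and 4.71 in knockouts, with the second knockout pair the higher one (0.47 ± 0.09, limma adjusted p = 0.0119). ATP5PO, which ties the stalk to the head, was 7.14, 7.21, 7.34 and 7.24 in controls and 7.58, 7.62, 7.64 and 7.69 in knockouts (0.40 ± 0.07, limma adjusted p = 0.0088). ATP5PD changed by 0.28 ± 0.08 (limma adjusted p = 0.0472, and 0.100 with the replicate block). ATP5PB, the b subunit, was 7.20, 7.25, 7.27 and 7.25 in controls and 7.06, 7.05, 7.13 and 7.09 in knockouts. Its groups did not overlap, yet the change of -0.16 ± 0.06 did not pass the test (limma adjusted p = 0.0955).

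Of the 5 other membrane subunits, ATP5MF rose by 0.41 ± 0.09 (limma adjusted p = 0.019) and ATP5MPL by 0.27 ± 0.07 (limma adjusted p = 0.0365, and 0.0685 with the replicate block). ATP5MF shares its locus with the readthrough row ATP5MF-PTCD1, whose values were between -0.74 and 0.37. The 5 subunits of the F1 head had changes from 0.03 to 0.32 with a median of 0.17. None was called by limma, and 3 had an unadjusted p under 0.05, all higher. That head holds the catalytic subunit ATP5F1B, named here after its values were seen, at 0.32 ± 0.10 (limma adjusted p = 0.0651).

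The 25 called members were higher within both sets of replicates. They were called on the same libraries that make up the sets, so this is a description and not a separate check. Between knockout and control replicates 1-2 their median change was 0.39, and between replicates 3-4 it was 0.33; 20 of the 25 had the larger change in 1-2. Over all 84 members the medians were 0.30 and 0.15, and 58 had a change above 0 in both sets (69.0%, against 30.4% of all genes). A further 17 were above 0 in 1-2 and not in 3-4, and 5 the other way round. Complex III had medians of 0.33 and 0.08, and complex IV 0.32 and 0.18. With limma on replicates 1-2 alone, 64 of 84 members were higher and 3 lower (33.0% and 26.6% of all genes), and on replicates 3-4 alone 14 were higher and 4 lower (15.7% and 17.4%). Each of those fits compared 2 libraries with 2, and the knockout libraries of each set are a close pair.

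**Figure D4:**
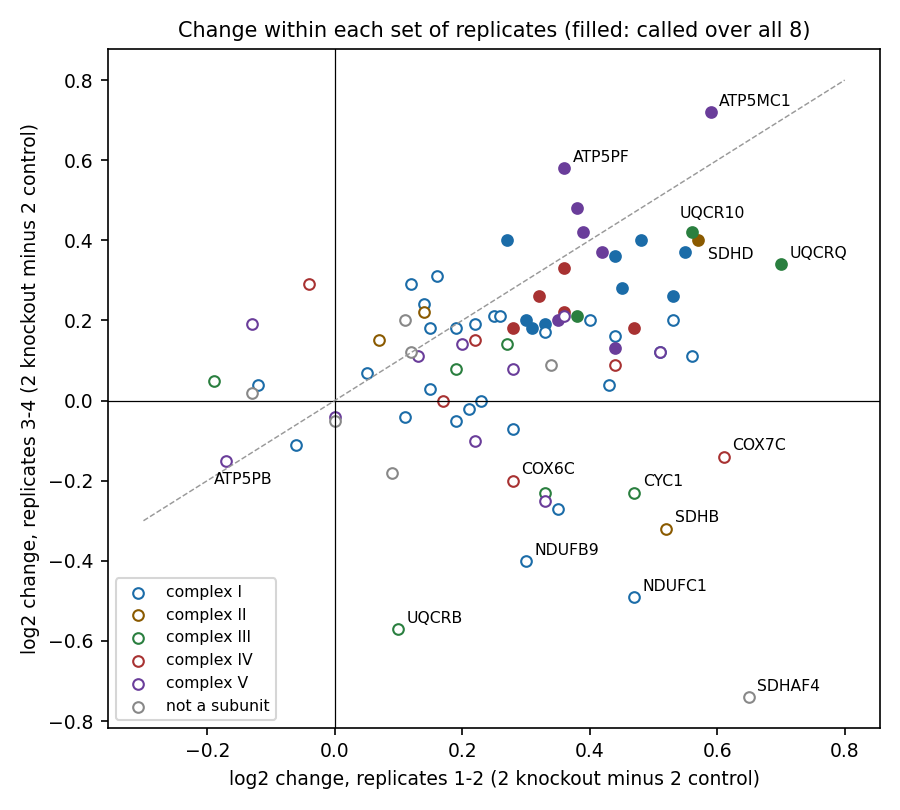
Log2 change of the 84 tested members within replicates 1-2 (horizontal axis) and within replicates 3-4 (vertical axis), coloured by complex; filled points were called over all 8 libraries and the dashed line marks equal change. All 25 filled points lie in the upper right, and UQCRB, NDUFC1, NDUFB9, SDHB and SDHAF4 lie far below 0 on the vertical axis.

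In 10 members the knockout pairs stood on opposite sides of all controls, replicates 1-2 above and 3-4 below: SDHB, UQCRH, COX7A2L, ATP5ME, NDUFC1, COX7C, SDHAF4, COX6C, NDUFB9 and ATP5MG. That is 11.9% of the members and 7.81% of all genes. The opposite pattern was seen in 1 member, ATP5F1D, and in 7.09% of all genes. These genes, apart from SDHB and COX6C, were named after their values were seen. NDUFC1, an accessory subunit of complex I, was 3.47 to 3.69 in controls, 4.14 and 4.01 in knockout replicates 1 and 2, and 3.06 and 3.07 in 3 and 4. COX7C, of complex IV, was 7.96 to 8.04 in controls, 8.61 in both of the first pair, and 7.92 and 7.87 in the second. Between the knockout pairs NDUFC1 differed by 1.01 and COX7C by 0.71, against changes of -0.01 and 0.24 between knockout and control means.

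Chromosomes differed in the same comparison of the knockout pairs. All 4 members on chromosome 8 (UQCRB, COX6C, NDUFB9 and CYC1) were higher in knockout replicates 1-2 than in 3-4, with a median difference of 0.65, and the median over the 310 tested genes of that chromosome was 0.27. On chromosome 4, with NDUFC1 and ATP5ME, the median over 296 genes was 0.51. Other chromosomes had medians below 0, such as -0.36 on chromosome 15 (with COX5A), -0.19 on chromosome 9 and -0.16 on chromosome 21. Positions were taken from GENCODE 29 (GRCh38), and the 20 nearest tested genes were summarised for each member. The neighbours of the 10 members above had median differences between the pairs of 0.01 to 0.73, all above 0: 0.73 at NDUFC1, 0.51 at COX6C, 0.45 at NDUFB9 and 0.39 at COX7C. They were 0.12 at ATP5ME, 0.09 at UQCRH, 0.07 at SDHB, 0.03 at COX7A2L and 0.01 at SDHAF4 and ATP5MG, so 6 of the 10 had neighbours that differed little between the pairs. Across the 84 members the difference between pairs went with that of the neighbours (Pearson r = 0.59, Spearman rho = 0.54). Across 8803 tested genes with a position both were 0.39. These correlations are across genes that share the same 8 libraries and, where they lie close together, the same neighbours, so they are descriptions only.

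**Figure D5:**
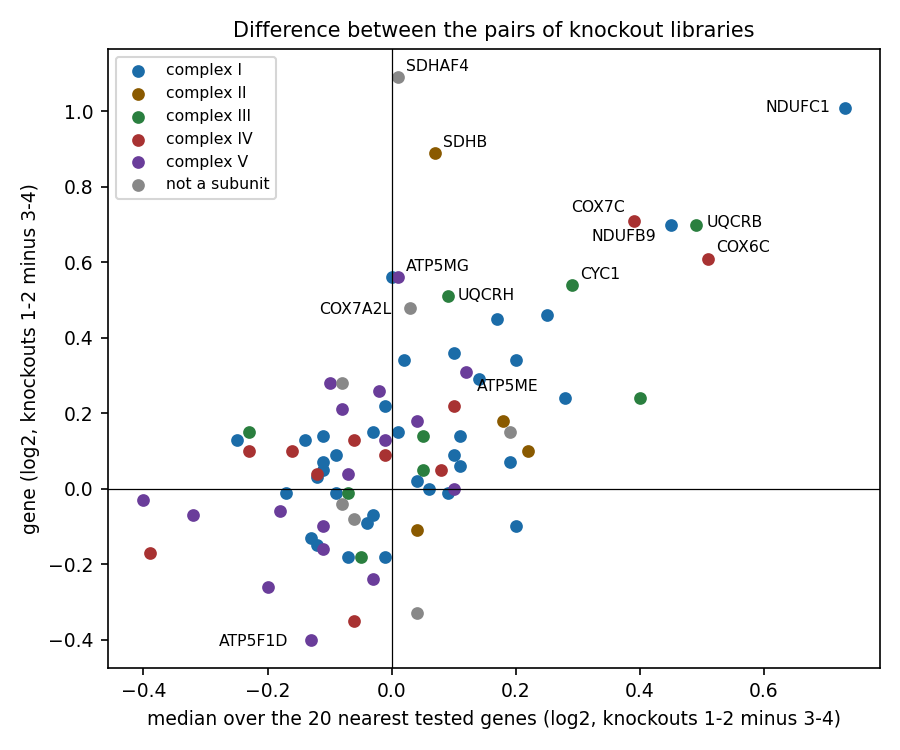
Difference between knockout replicates 1-2 and 3-4 (log2) for each of the 84 tested members (vertical axis) against the median difference of its 20 nearest tested genes (horizontal axis), coloured by complex. NDUFC1, COX6C, UQCRB, NDUFB9 and COX7C are high on both axes, while SDHAF4, SDHB and ATP5MG are high on the vertical axis with neighbours near 0.

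When the median deviation of the 20 nearest genes was removed from each gene in each library, an alternative chosen after seeing the data, limma called 19 of 84 members higher (6.53% of all genes) and the median stayed at 0.20. Of the 25 members called before, 13 were among the 19. Those 13 included ATP5MC1 (adjusted p = 0.00441), UQCR10 (0.0057), ATP5PF (0.00748) and NDUFA6 (0.0139), all by limma. The largest limma adjusted p among those lost were 0.587 for ATP5MPL, 0.298 for COX4I1, 0.15 for NDUFS5 and 0.146 for ATP5PO. ATP5PB moved from -0.16 to 0.07, and its neighbours were themselves at -0.23.

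The members are short transcripts: the longest annotated transcript had a median of 1510 bases, against 3638 over all tested genes, with a similar GC content (47.7% and 47.9%). After a correction of each library for length and GC content, chosen after seeing the data, the median over the members was 0.16 and limma called 25 (8.46% of all genes higher), of which 19 were among the 25 called without it. Those lost were NDUFB3 (limma adjusted p = 0.185), ATP5MPL (0.128), COX5A (0.11), NDUFS5 (0.10), COX7A2 (0.0774) and COX7B (0.0558).

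Other genes of the pathway were read from lists beside the members, where the same 7.02% of all genes higher and 6.1% lower apply. With the knockout pairs averaged, limma called 0 genes of any of these lists. Of 51 assembly factors of the complexes, SDHAF1 to SDHAF4 among them, 46 were tested, and 5 were called higher and 1 lower, with a median of 0.13. With the replicate block 5 were higher and 0 lower, without ECSIT (0.22, limma adjusted p = 0.0424, block 0.0962) and with LYRM7 (0.64, limma adjusted p = 0.056, block 0.0312), a gene named after its values were seen. NDUFAF8 (0.54 ± 0.11) and FOXRED1 (0.38 ± 0.07), both needed to build complex I, had limma adjusted p of 0.0183 and 0.0116. PET100 (0.38), an assembly factor of complex IV, and ATPAF1 (0.33), one of the F1 head, had limma adjusted p of 0.0324 and 0.0145. COX19, a copper-delivery factor of complex IV, fell by 0.33 (limma adjusted p = 0.0498, and 0.0567 with the replicate block). Its means were 1.19 in controls and 0.86 in knockouts, close to the minimum mean of 1 for testing. Of 14 citric acid cycle enzymes, 5 were called higher and 0 lower (1 was lower at an unadjusted p under 0.05), with a median of 0.13. Among them were IDH3A (0.53), SUCLG1 (0.47), FH (0.38) and SUCLG2 (0.30), with limma adjusted p between 0.00562 and 0.0158. Of 17 tested carriers and enzymes that feed electrons to ubiquinone or cytochrome c, 2 were called higher, ETFA (0.51) and DHODH (0.50), with limma adjusted p of 0.01 and 0.0259 and a list median of 0.05. ETFDH, which passes electrons from ETFA to ubiquinone and is named after its values were seen, was at -0.46 (limma adjusted p = 0.0579, and 0.0387 with the replicate block).

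The known regulators did not pass the test. Of 15 listed, 11 were tested. Limma called 0 with or without the replicate block, 1 was lower at an unadjusted p under 0.05, and the median was -0.05. NRF1 was at 0.12 (limma adjusted p = 0.331), GABPA at -0.21 (0.0769), and TFAM, which maintains and transcribes mitochondrial DNA, at 0.22 (0.231). Ribosomal protein genes were set beside the members as other large gene families. Of 78 mitochondrial ribosomal protein genes 9 were called higher (4 with the replicate block) and 0 lower, with 20 higher and 4 lower at an unadjusted p under 0.05 and a median of 0.11 (0.25 in replicates 1-2 and -0.05 in 3-4). Of 82 cytosolic ribosomal protein genes 2 were called higher and 1 lower (1 and 0 with the replicate block), with 4 higher and 14 lower at an unadjusted p under 0.05 and a median of -0.08. The difference between these lists and the members was not tested.

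Many copies of these genes exist in the genome. Of the 282 matching rows, 193 had no value in any library, 185 of them named as pseudogenes, 3 as antisense or divergent transcripts and 5 as genes. How reads that fit both a gene and its pseudogene were assigned is not given in the sources used here, so the level of a member with such copies is uncertain to that extent. UQCRHL, a near-identical copy of UQCRH, had 7 values between -4.41 and -1.54. COX8C had 5 values between -4.42 and -3.48, and neither was tested.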

How the data were processed

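Total RNA of 4 control and 4 knockout samples of 143B cells was sequenced by the submitters. The deposited table holds log2 values that the authors quantile normalized, 1 column per library. The submitters' processing notes name bcl2fastq, Partek 7.0 and GRCh38. The unit before the log2 step, the aligner, the annotation and the reason for blank cells are not given in the sources used here. Genes with no blank among the 8 libraries and an average of at least 1 were tested with limma 3.58.1 in R 4.3.3, knockout against control, with Benjamini-Hochberg adjustment, and called at adjusted p under 0.05. The members and the gene lists were chosen with earlier results of these data known. Named were all called members, the subunit with the largest rise and fall in each complex, the SDH genes, the isoform pairs of complex IV, and up to 5 called genes of each list; a few genes are not reported here. Deviations of same-numbered control and knockout libraries from their group means correlated at 0.24, 0.27, 0.29 and 0.20. Other pairs within replicates 1-2 or within 3-4 correlated at 0.11 to 0.31, and pairs across these sets at -0.30 to -0.15. The replicate number and, separately, the set were also fitted as terms. On simulated data with 200 of 9016 genes changed, the fit recovered 49.5% of changes of 0.5 and 87.0% of changes of 1.0 on the log2 scale. The simulated libraries varied independently, unlike the close pairs of knockout libraries, and no change under 0.5 was simulated. These rates therefore need not hold for the members. Alternatives were the filter, scaling, a pseudocount of 1, the variance model, batch terms, close pairs averaged, and each library left out.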

Additional observations from a re-analysis of the deposited data

Results flagged for a closer look

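ATP5MC1 in control replicate 3 was 6.37, while the other 3 controls lay between 6.15 and 6.17, so that this library stood apart from its group. Among 72 groups of 4 libraries checked (36 named members), 1 was marked in this way, and chance marks about 1 group in 20. All 4 knockout values of ATP5MC1 lay above that control.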

How the results depend on the processing

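Over all alternatives run, the median over the members stayed above 0, between 0.15 and 0.30. In the fits with the replicate block, with the batch term and with pairs averaged it could not move, because each gene's mean change stays the same. The count of 25 members called was 13 with the replicate block and 0 with knockout pairs averaged. It was 14 with the replicate block and a length and GC correction, where 12.5% of all genes were called. With no filter on low values it was 15, and it was 40 when the set (1-2 or 3-4) was the batch term. Replicates 1-2 alone gave 67 members (64 higher, 3 lower), with 59.7% of all genes called. Replicates 3-4 alone gave 18 members (14 higher, 4 lower), with 33.1% of all genes called. Leaving out 1 library gave 8 to 28 members. The 1183 genes called over the whole table became 2274 with the batch term, 108 with pairs averaged, 729 at a mean of at least 3, 5380 in replicates 1-2 alone, 2987 in replicates 3-4 alone, and 391 to 1353 with 1 library left out. In replicates 1-2 alone the median was 0.30 over the members and 0.29, 0.33, 0.33, 0.32 and 0.35 for complexes I to V. In replicates 3-4 alone it was 0.18 for complex I and 0.14 for complex V. The complex III median was 0.11 to 0.23 with 1 library left out. Beside the 12 calls it ended, the replicate block changed no other call among the named members. Among the named members, signs reversed only in some that were not called: COX6C (-0.04) and COX6A1 (-0.01) after the length and GC correction with or without the block, UQCRB (0.10) and COX6B1 (-0.04) in replicates 1-2 alone, SDHB (-0.32) and COX6C (-0.20) in replicates 3-4 alone, and ATP5PB (0.07) with neighbouring genes removed. With 1 library left out, SDHB ranged from -0.05 to 0.27 and COX6C from -0.07 to 0.15, below 0 in both without knockout replicate 1 or 2. Over all 84 members, 65 were above 0 after the length and GC correction, against 72 without it. The cause of these differences was not tested, except that fits on fewer libraries have fewer degrees of freedom. The correction for length and GC content without the block and the removal of neighbouring genes were chosen after seeing the data. Depth is unknown, which limits any statement on single values.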
